A study of Mus musculus with 8 samples.

Results

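The semaphorin, ephrin and Slit families of guidance genes were followed across mouse blood stem cell populations. All rows of the deposited expression table whose symbol named a class 3 to class 7 semaphorin, a plexin, an ephrin, an Eph receptor or a Slit, Robo or Unc5 gene were taken, by symbol and not by expression. That gave 62 of 33504 genes, made up of 8 ephrins, 14 Eph receptors, 20 semaphorins, 9 plexins, 3 Slit genes, 4 Robo genes and 4 Unc5 genes. RNA abundance came from poly(A) paired-end sequencing of 8 libraries, given as FPKM, a fragment count divided by transcript length and by the size of the library. FL-HSC (2 libraries) are hematopoietic stem cells of the fetal liver at embryonic day 14.5. The 3 ex-HSC libraries have the stage in vitro, and were read as cells recovered from a 4-day reaggregate culture of sorted embryonic cells and OP9, a stromal line from mouse bone marrow, with SCF, IL-3 and Flt3L at 100 ng/ml each. Pre-HSC (3 libraries) are precursors of these stem cells at embryonic day 11.5. All groups are on the C57BL/6J background and came from wild-type females mated with wild-type males or males carrying the Ly6a-GFP transgene, a green fluorescent reporter of the Ly6a (Sca-1) gene, and the labels do not say which libraries carry it. All 3 groups bear the cell type label of hematopoietic stem cells, and neither the sort gates nor the litters or cultures behind the replicates are given, so the spread behind each p-value is that among libraries and may be technical.

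Guidance cues were first described in growing axons and also pattern blood vessels. Ephrins bind Eph receptor tyrosine kinases on neighbouring cells and signal in both directions, semaphorins bind plexins, alone or with a neuropilin co-receptor, and secreted Slit proteins bind Robo receptors. In the embryo, ephrin-B2 marks arterial and EphB4 venous endothelium, plexin-D1 and Robo4 are known from endothelium, and blood stem cells arise from arterial endothelium.

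The promoters of Efnb2, Ephb4, Slit2 and Robo4 are shown because the results turn on these genes and because they differ in base composition. Each sequence is the RefSeq window of the build GRCm38.p6 that runs 250 bases before to 50 bases after the annotated start, 300 bases in all, written 5′ to 3′ on the gene's strand. Capitals mark matches on either strand to any of 4 motifs. The GC box, a site of the widely expressed Sp1 family, was searched as GGGCGG. The box named CCAAT, bound by the general factor NF-Y, was searched by those letters. The TATA box, found in some core promoters, was searched as TATAAA. The core bound by ETS family factors, which act in blood and endothelial cells, was searched as AGGAAG. The windows lie at chr8:8661193-8661492 on the minus strand for Efnb2, chr5:137349859-137350158 on the plus strand for Ephb4, chr5:47982905-47983204 on the plus strand for Slit2 and chr9:37401722-37402021 on the plus strand for Robo4.
Efnb2: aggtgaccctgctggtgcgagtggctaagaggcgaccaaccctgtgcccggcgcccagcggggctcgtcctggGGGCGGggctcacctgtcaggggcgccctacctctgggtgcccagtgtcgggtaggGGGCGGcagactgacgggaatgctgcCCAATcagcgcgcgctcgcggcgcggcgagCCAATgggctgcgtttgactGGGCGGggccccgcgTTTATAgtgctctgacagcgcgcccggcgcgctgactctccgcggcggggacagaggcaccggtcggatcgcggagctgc
Ephb4: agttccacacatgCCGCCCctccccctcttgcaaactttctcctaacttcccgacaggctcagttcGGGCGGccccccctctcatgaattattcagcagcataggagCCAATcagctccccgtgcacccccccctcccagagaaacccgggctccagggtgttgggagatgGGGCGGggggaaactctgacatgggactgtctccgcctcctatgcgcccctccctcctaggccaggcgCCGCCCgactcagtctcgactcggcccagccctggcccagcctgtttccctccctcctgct
Slit2: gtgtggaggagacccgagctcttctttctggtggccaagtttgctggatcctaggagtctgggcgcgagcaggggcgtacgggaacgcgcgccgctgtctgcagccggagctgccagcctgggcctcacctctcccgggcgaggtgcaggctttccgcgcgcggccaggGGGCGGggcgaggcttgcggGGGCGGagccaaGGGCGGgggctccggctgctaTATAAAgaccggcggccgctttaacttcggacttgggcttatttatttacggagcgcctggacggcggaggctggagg
Robo4: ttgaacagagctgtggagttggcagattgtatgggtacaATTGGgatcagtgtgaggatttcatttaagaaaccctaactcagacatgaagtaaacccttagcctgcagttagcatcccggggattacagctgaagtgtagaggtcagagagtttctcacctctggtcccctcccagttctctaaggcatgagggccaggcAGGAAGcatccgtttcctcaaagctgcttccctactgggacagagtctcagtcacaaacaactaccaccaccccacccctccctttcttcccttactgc
The Efnb2 window held 3 GC boxes, 2 CCAAT boxes and 1 TATA match, with 35 CG dinucleotides and 72.3% G and C. That TATA match reads TTTATA on the gene's strand, so TATAAA lies on the opposite strand. The Ephb4 window held 4 GC boxes and 1 CCAAT box, with 14 CG dinucleotides and 64.7% G and C. The Slit2 window held 3 GC boxes and 1 TATA box, with 30 CG dinucleotides and 68.0% G and C. The Robo4 window stood apart, with no GC box, 1 CCAAT box, 1 ETS core, 2 CG dinucleotides and 50.3% G and C. RefSeq windows were found for 54 of the 62 genes, 70 windows in all. A GC box was found in 49 of the 70 windows (70.0%), against 35.7% of all 32851 windows. TATAAA on either strand was in 2 of the 70 (2.86%), against 13.6% of all windows. CCAAT was in 30.0% of the members' windows and 37.4% of all windows, and AGGAAG in 35.7% and 35.4%. These matches describe letters in a window and were not tested against expression.

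Libraries had 11682 to 12757 genes at or above 1 FPKM and summed to 553227 to 745619 FPKM, and without counts their depth is unknown. The library ex-HSC replicate 2 stood apart: it listed 24992 genes above 0, against 15622 to 18374 in the other 7 libraries, and had the lowest FPKM sum. Marker genes set the groups apart. The 18 endothelial markers summed to 570 to 632 FPKM in FL-HSC, 198 to 393 in ex-HSC and 4353 to 4877 in pre-HSC. Cdh5, which encodes the endothelial cadherin, averaged 7.97 ± 4.52 FPKM in FL-HSC, 4.31 ± 2.07 in ex-HSC and 457 ± 29.6 in pre-HSC. The 12 blood stem and progenitor markers summed to 792 to 845 FPKM in FL-HSC, 360 to 643 in ex-HSC and 382 to 468 in pre-HSC. The 12 stromal markers summed to 8.69 to 14.4, 15.1 to 32.1 and 393 to 743 FPKM in FL-HSC, ex-HSC and pre-HSC, with Lum and Dcn listed at 0 in both FL-HSC libraries. Of 9 neuron and neural crest markers, 7 were listed at 0 in both FL-HSC libraries, and the 9 summed to 75.1 to 80.9 FPKM in pre-HSC. The 9 mast cell markers summed to 79.4 to 89.4 FPKM in FL-HSC, 2217 to 4796 in ex-HSC and 30.8 to 37.2 in pre-HSC. In these bulk libraries fewer cells of a type and less RNA per cell cannot be told apart.

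The guidance genes were mostly pre-HSC genes. The 62 members summed to 189 to 197 FPKM in FL-HSC, 74.8 to 166 FPKM in ex-HSC and 911 to 1004 FPKM in pre-HSC. Pre-HSC thus overlapped with neither other population. The lowest ex-HSC sum was that of replicate 2, where Sema4d was listed at 0, against 51.5 and 48.5 FPKM in ex-HSC replicates 1 and 3. A group mean of 1 FPKM or more was reached by 26 members in FL-HSC, 25 in ex-HSC and 50 in pre-HSC. Of the 62, 49 had at least 1 FPKM in at least 2 libraries and were tested, and a gene was called at a limma adjusted p under 0.05, with Benjamini-Hochberg adjustment over all 13720 genes tested. Only called genes are said below to have risen or fallen, and log2 fold changes ± SE are on the log2(FPKM + 1) scale, which understates the change of low genes.

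**Figure D1:**
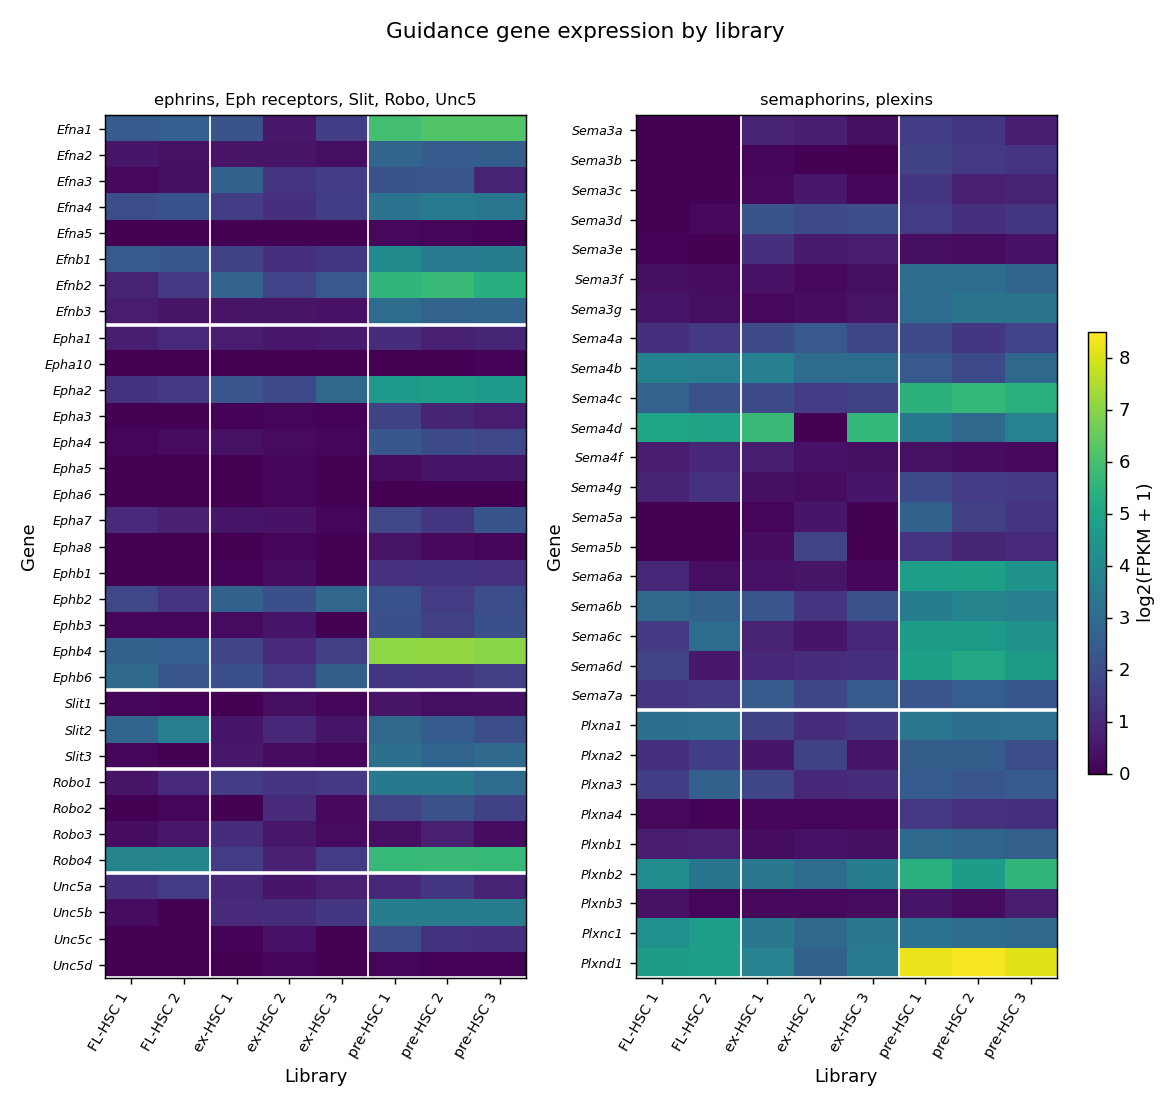
Heat map of log2(FPKM + 1) for the 62 guidance genes (rows, grouped by family with white lines) in the 8 libraries (columns: 2 FL-HSC, 3 ex-HSC, 3 pre-HSC). Plxnd1 and Ephb4 are the brightest rows in pre-HSC. By group means Sema4d and Sema4b are lowest in pre-HSC, but Sema4d is listed at 0 in ex-HSC replicate 2 and was not called in any comparison.

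Against pre-HSC, 36 of the 49 tested members fell in FL-HSC and 3 rose (Ephb6, Sema4b and Plxnc1). Over all tested genes 20.4% were called lower and 22.9% higher in that comparison. In ex-HSC, 36 fell and 2 rose (Sema4b and Sema3d) against pre-HSC, where 28.4% of all tested genes were called lower and 15.7% higher. These 2 comparisons share the pre-HSC libraries. The median log2 fold change of the tested members was -1.47 in FL-HSC and -1.77 in ex-HSC against pre-HSC, beside 0.13 and -0.16 over all tested genes. Of the 49, 15 reached 1 FPKM in pre-HSC libraries only and could pass the filter on low values through that group alone. Among the 23 members that reached 1 FPKM in every group, 15 fell and 3 rose in FL-HSC, and 16 fell and 1 rose in ex-HSC, against pre-HSC.

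FL-HSC and ex-HSC differed less. Against ex-HSC, 11 members rose in FL-HSC (Efna4, Efnb1, Ephb4, Sema4c, Sema6b, Sema6c, Plxna1, Plxnc1, Plxnd1, Slit2 and Robo4) and 7 fell (Efna3, Efnb2, Epha2, Ephb2, Sema3d, Sema7a and Unc5b), while 24.1% of all tested genes were called higher and 9.15% lower. The members' median was 0.12, beside 0.27 over all tested genes. Calls held in every alternative for 8 of these 18 genes: Ephb4, Plxna1, Plxnc1, Plxnd1, Slit2, Robo4, Sema3d and Unc5b. Without FL-HSC replicate 2 only 7 members were called higher, and without FL-HSC replicate 1, FL-HSC replicate 2, ex-HSC replicate 1 or ex-HSC replicate 3 only 3 or 4 were called lower. With no filter on low values 7 were called higher and 3 lower. With median-of-ratios scaling of the libraries 8 members were called higher and 9 lower in FL-HSC against ex-HSC, so the balance turned: Efna4, Sema4c and Sema6b were no longer called higher, and Sema4a and Robo1 were called lower. This scaling moved the median of all tested genes to -0.02 in FL-HSC against ex-HSC and to -0.01 in both comparisons against pre-HSC. With that scaling the share of higher genes among all called was 49.9% (2473 higher and 2483 lower) in FL-HSC against ex-HSC, in place of 72.5% (3308 and 1256), and 48.8% (3671 and 3855) in ex-HSC against pre-HSC, in place of 35.6% (2154 and 3896).

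**Figure D2:**
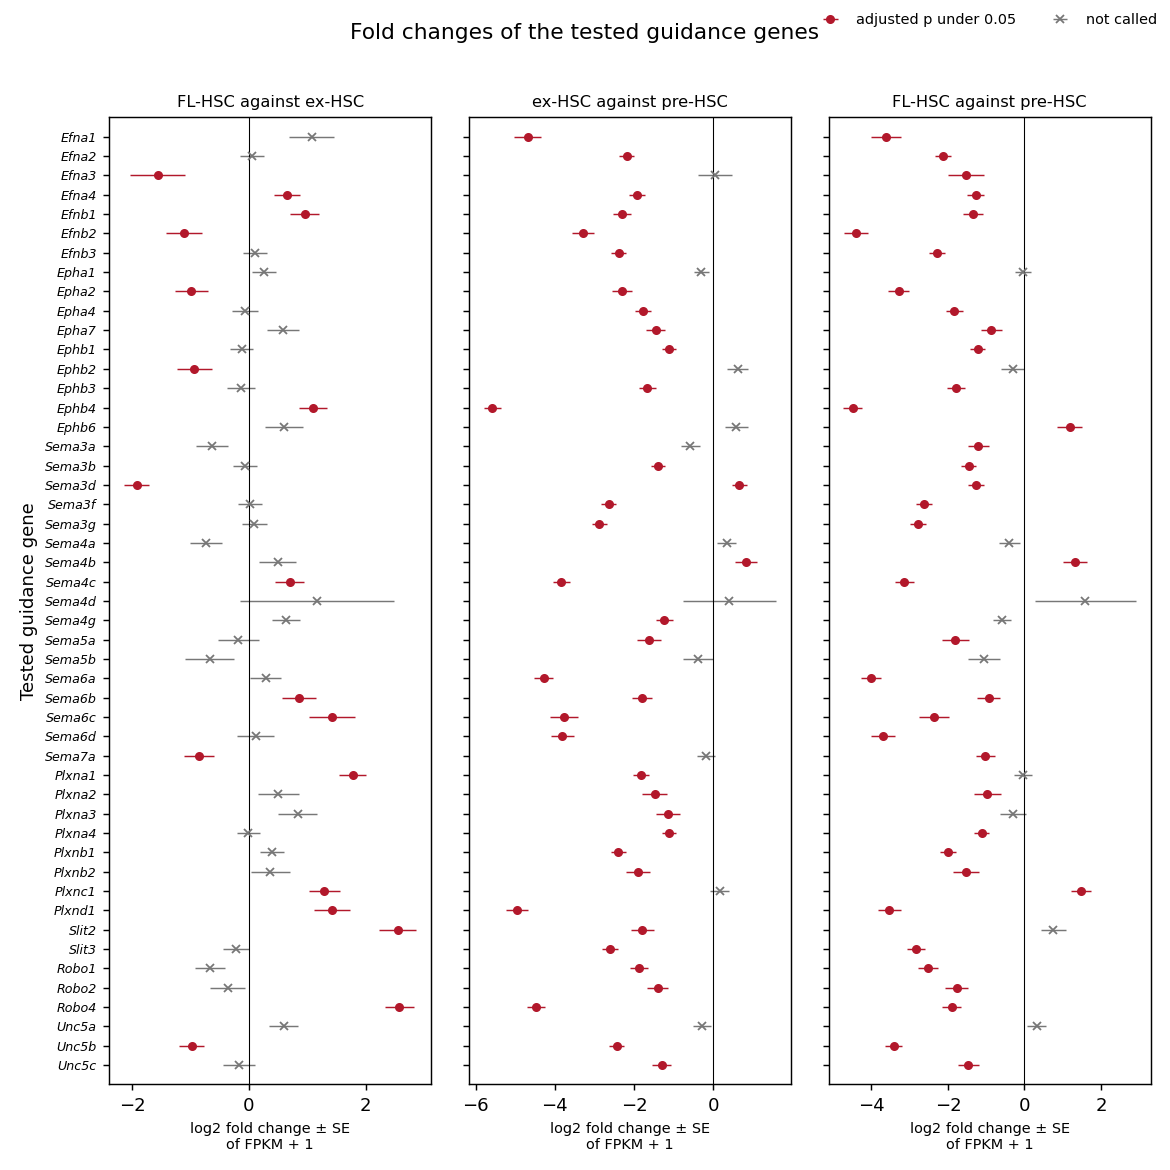
Log2 fold changes ± SE on the log2(FPKM + 1) scale for the 49 tested guidance genes (rows) in the 3 comparisons (panels), with filled red points for an adjusted p under 0.05. Most points lie left of 0 in both comparisons against pre-HSC, with 36 called lower in each, and on both sides of 0 in FL-HSC against ex-HSC.

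Ephrin RNA was lower in both FL-HSC and ex-HSC than in pre-HSC. The 8 ephrins summed to 13.8 to 14.8 FPKM in FL-HSC, 7.33 to 18.8 FPKM in ex-HSC and 142 to 159 FPKM in pre-HSC. All 7 tested ephrins fell in FL-HSC and 6 of 7 fell in ex-HSC against pre-HSC, of which Efna2 and Efnb3 reached 1 FPKM in pre-HSC libraries only. Among all tested genes 20.4% were called lower in FL-HSC and 28.4% in ex-HSC. Efnb2, the arterial ligand of EphB4, had 0.778 and 1.74 FPKM in FL-HSC, 5.40, 2.28 and 4.23 FPKM in ex-HSC, and 47.0, 52.4 and 39.0 FPKM in pre-HSC. The 3 groups did not overlap, and the order was FL-HSC, ex-HSC, pre-HSC by rising level. It fell in FL-HSC (log2 fold change -4.41 ± 0.31, adjusted p = 1.72e-06) and in ex-HSC (-3.29 ± 0.28, adjusted p = 3.86e-06) against pre-HSC, and lay lower in FL-HSC than ex-HSC (-1.12 ± 0.31, adjusted p = 0.0199). That last call was lost without FL-HSC replicate 1 (-0.80, adjusted p = 0.145), without ex-HSC replicate 1 (-0.91, adjusted p = 0.0547) and with no filter (adjusted p = 0.0669).

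Efna1, an ephrin held to the membrane by a lipid anchor, had 4.54 and 4.81 FPKM in FL-HSC, 3.49, 0.463 and 1.97 FPKM in ex-HSC, and 61.7, 72.4 and 71.8 FPKM in pre-HSC. It was the most abundant ephrin in pre-HSC and fell by 3.61 ± 0.38 in FL-HSC and by 4.69 ± 0.34 in ex-HSC (log2, adjusted p = 2.79e-05 and 1.11e-06). Every FL-HSC library was above every ex-HSC library, but the difference of 1.07 ± 0.38 was not called (adjusted p = 0.0504). It was called without ex-HSC replicate 1 (1.44, adjusted p = 0.00946) and with isolated zeros as missing values (adjusted p = 0.045). Efnb1, the ephrin-B ligand encoded on the X chromosome, had 4.26 and 3.96 FPKM in FL-HSC, 2.16, 1.19 and 1.62 FPKM in ex-HSC, and 15.3, 10.4 and 10.8 FPKM in pre-HSC. The levels of Efnb1 stepped without overlap, with ex-HSC lowest and FL-HSC between, and FL-HSC was higher than ex-HSC (0.96 ± 0.25, adjusted p = 0.0145), a call lost without FL-HSC replicate 1 (adjusted p = 0.0689) or 2 (0.0517). Efna4, another lipid-anchored ligand, had 3.08 and 3.37 FPKM in FL-HSC, 1.89, 1.23 and 2.01 FPKM in ex-HSC, and 8.51, 10.1 and 9.17 FPKM in pre-HSC. It followed the same order, but its excess in FL-HSC over ex-HSC (0.65 ± 0.22, adjusted p = 0.0455) was lost on leaving out any 1 of the 8 libraries (adjusted p = 0.055 to 0.165), with no filter (0.0933) and with median-of-ratios scaling (0.41, adjusted p = 0.0784).

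Efna3, described after its values were seen, was the ephrin with another pattern. It had 0.135 and 0.250 FPKM in FL-HSC, 5.19, 1.42 and 1.92 FPKM in ex-HSC, and 3.56, 3.85 and 0.786 FPKM in pre-HSC. Ex-HSC and pre-HSC overlapped, and both lay above FL-HSC in every library. It was lower in FL-HSC than ex-HSC (-1.56 ± 0.47, adjusted p = 0.0267) and than pre-HSC (-1.52 ± 0.47, adjusted p = 0.0237), whereas ex-HSC against pre-HSC gave 0.05 ± 0.42 (adjusted p = 0.934). The FL-HSC to ex-HSC call was lost without FL-HSC replicate 1 (adjusted p = 0.101), FL-HSC replicate 2 (0.0765) or ex-HSC replicate 1 (0.072), and the FL-HSC to pre-HSC call without FL-HSC replicate 1 (0.0949), FL-HSC replicate 2 (0.0611), pre-HSC replicate 1 (0.0648) or pre-HSC replicate 2 (0.051). With no filter both calls were lost (adjusted p = 0.114 and 0.1). Efna2 had 0.444 and 0.314 FPKM in FL-HSC, 0.353, 0.372 and 0.257 FPKM in ex-HSC, and 5.86, 4.56 and 4.74 FPKM in pre-HSC. Efnb3, a transmembrane ephrin, had 0.569 and 0.353 FPKM in FL-HSC, 0.350, 0.376 and 0.337 FPKM in ex-HSC, and 7.003, 5.48 and 5.79 FPKM in pre-HSC. In both genes FL-HSC and ex-HSC overlapped and lay below every pre-HSC library. Efna2 and Efnb3 fell by 2.13 ± 0.21 and by 2.28 ± 0.21 in FL-HSC, and fell by 2.18 ± 0.19 and by 2.38 ± 0.19 in ex-HSC, against pre-HSC (log2, adjusted p at or below 1.66e-05). Efna5 stayed at or below 0.145 FPKM in every library.

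**Figure D3:**
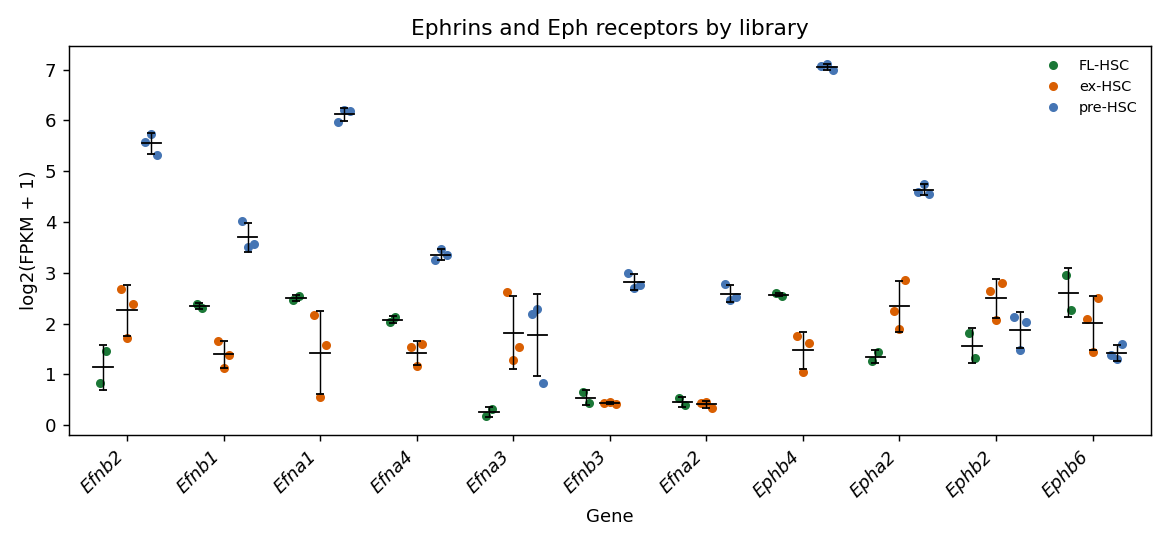
Log2(FPKM + 1) of the ephrins and Eph receptors described in the text, by library (points, green FL-HSC, orange ex-HSC, blue pre-HSC), with group mean and SD as black bars. By group means Ephb4, Efna1 and Efnb2 show the widest gaps between pre-HSC and each other group, and Ephb2 and Ephb6 show none of that size.

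The most abundant Eph receptors of pre-HSC, Ephb4 and Epha2, fell in both FL-HSC and ex-HSC. Ephb4, the venous receptor of ephrin-B2, had 5.03 and 4.84 FPKM in FL-HSC, 2.36, 1.08 and 2.06 FPKM in ex-HSC, and 133, 138 and 126 FPKM in pre-HSC. All 3 groups were apart, and pre-HSC averaged 26.8 times the FL-HSC mean and 72.2 times the ex-HSC mean. It fell by 4.49 ± 0.24 in FL-HSC and by 5.58 ± 0.21 in ex-HSC against pre-HSC (log2, adjusted p = 2.03e-07 and 2.7e-08), and was higher in FL-HSC than ex-HSC (1.10 ± 0.24, adjusted p = 0.00577). Epha2, a receptor of ephrin-A ligands, had 1.39 and 1.72 FPKM in FL-HSC, 3.78, 2.70 and 6.29 FPKM in ex-HSC, and 23.2, 26.0 and 22.5 FPKM in pre-HSC. It also fell in FL-HSC (-3.28 ± 0.28, adjusted p = 6.34e-06) and ex-HSC (-2.30 ± 0.25, adjusted p = 2.7e-05), but here FL-HSC lay below ex-HSC (-0.99 ± 0.28, adjusted p = 0.0216), a call lost without FL-HSC replicate 1 (adjusted p = 0.103), FL-HSC replicate 2 (0.0571) or ex-HSC replicate 3 (0.059) and with no filter (0.0641).

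Ephb6 and Ephb2 did not follow that pattern. Ephb6, whose product lacks kinase activity, had 6.72 and 3.84 FPKM in FL-HSC, 3.25, 1.71 and 4.70 FPKM in ex-HSC, and 1.61, 1.45 and 2.04 FPKM in pre-HSC. It rose in FL-HSC relative to pre-HSC (1.18 ± 0.33, adjusted p = 0.0135), and the call was lost without FL-HSC replicate 1 (0.85, adjusted p = 0.122) and with no filter (adjusted p = 0.0594). Ephb2, described after its values were seen, had 2.51 and 1.501 FPKM in FL-HSC, 5.24, 3.20 and 5.95 FPKM in ex-HSC, and 3.39, 1.77 and 3.08 FPKM in pre-HSC. Ephb2 encodes a kinase receptor of ephrin-B ligands, and it was lower in FL-HSC than ex-HSC (-0.94 ± 0.30, adjusted p = 0.0359), a call lost without FL-HSC replicate 2 (adjusted p = 0.205), ex-HSC replicate 1 (0.0811) or ex-HSC replicate 3 (0.0996) and with no filter (0.117). In ex-HSC against pre-HSC, Ephb2 and Ephb6 gave 0.62 ± 0.27 and 0.58 ± 0.29 (adjusted p = 0.0849 and 0.13), and without ex-HSC replicate 2 they passed the threshold (0.84, adjusted p = 0.0334, and 0.87, adjusted p = 0.0275), as they did with median-of-ratios scaling (0.76, adjusted p = 0.0193, and 0.70, adjusted p = 0.0444).

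The make-up of the Eph receptor RNA differed between populations. Ephb4 made up 28.6% to 34.7% of the family's FPKM in FL-HSC, 10.04% to 14.5% in ex-HSC and 75.6% to 77.9% in pre-HSC. In FL-HSC Ephb6 had 27.5% to 38.2%, and in ex-HSC Ephb2 had 29.7% to 32.3% and Epha2 23.3% to 31.8%. Of the 5 other tested Eph receptors, Epha4, Epha7, Ephb1 and Ephb3 fell in both comparisons against pre-HSC and Epha1 was not called in any comparison, and Epha4, Ephb1 and Ephb3 reached 1 FPKM in pre-HSC libraries only. Their group means were at most 3.09 FPKM. The 5 untested Eph receptors (Epha3, Epha5, Epha6, Epha8 and Epha10) reached 2.22 FPKM at most, in Epha3 of pre-HSC replicate 1.

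**Figure D4:**
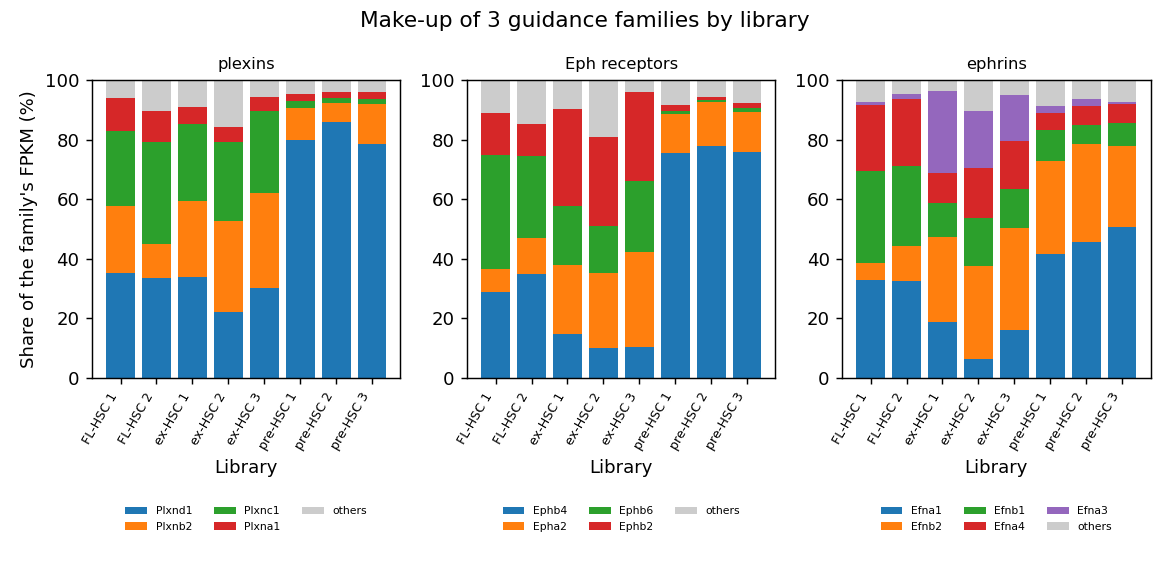
Share of each library's summed FPKM of the plexins, Eph receptors and ephrins that single genes make up (stacked bars, percent, 2 FL-HSC, 3 ex-HSC and 3 pre-HSC libraries). Plxnd1 and Ephb4 fill at least 78.4% and 75.6% of their families in the pre-HSC libraries and at most 35.1% and 34.7% in the other libraries.

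Among the semaphorins the 4 class 6 members, which are transmembrane proteins, fell in both FL-HSC and ex-HSC against pre-HSC, and Sema4b rose in both. Of 17 tested semaphorins, 12 fell and 1 rose in FL-HSC and 10 fell and 2 rose in ex-HSC against pre-HSC. The shares of all tested genes were 20.4% lower and 22.9% higher in FL-HSC, and 28.4% lower and 15.7% higher in ex-HSC. Sema3a, Sema3b, Sema3f, Sema3g, Sema5a and Sema6a reached 1 FPKM in pre-HSC libraries only. Sema4c, a ligand of plexin-B2, had 5.35 and 3.28 FPKM in FL-HSC, 2.80, 1.79 and 2.13 FPKM in ex-HSC, and 43.3, 49.8 and 41.5 FPKM in pre-HSC. It was the most abundant semaphorin of pre-HSC and fell by 3.13 ± 0.25 in FL-HSC and by 3.83 ± 0.22 in ex-HSC (log2, adjusted p = 3.45e-06 and 2.2e-07). Its small excess in FL-HSC over ex-HSC (0.70 ± 0.25, adjusted p = 0.0499) was lost in 6 of 8 fits that left out a library, those without FL-HSC replicate 1 (0.41, adjusted p = 0.326), ex-HSC replicates 2 and 3 (0.087 and 0.0992) and any pre-HSC replicate (0.072 to 0.089). It was also lost with no filter (0.0931) and with median-of-ratios scaling (0.44, adjusted p = 0.124).

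Class 6 semaphorins are transmembrane ligands of A-type plexins. Sema6a had 0.922 and 0.243 FPKM in FL-HSC, 0.339, 0.359 and 0.114 FPKM in ex-HSC, and 26.0, 26.9 and 19.0 FPKM in pre-HSC. Sema6d had 2.35 and 0.489 FPKM in FL-HSC, 0.905, 1.09 and 1.19 FPKM in ex-HSC, and 27.0, 33.6 and 24.0 FPKM in pre-HSC. Both were far apart between pre-HSC and the other populations, which overlapped each other. Sema6a fell by 4.00 ± 0.26 in FL-HSC and by 4.29 ± 0.24 in ex-HSC, and Sema6d fell by 3.70 ± 0.32 and by 3.81 ± 0.29 (log2, all adjusted p at or below 6.9e-06). Sema6c had 1.64 and 7.09 FPKM in FL-HSC, 0.809, 0.431 and 0.982 FPKM in ex-HSC, and 24.8, 23.7 and 19.8 FPKM in pre-HSC. The 2 FL-HSC libraries of Sema6c lay far apart. Its rise in FL-HSC against ex-HSC (1.42 ± 0.39, adjusted p = 0.0189) was 2.23 without FL-HSC replicate 1, 0.61 without FL-HSC replicate 2 (adjusted p = 0.169) and not called without ex-HSC replicate 2 (1.29, adjusted p = 0.0729) or with no filter (adjusted p = 0.0806), and its fall in FL-HSC against pre-HSC was -2.36 ± 0.39 with both libraries (adjusted p = 0.000739) and -1.55 without FL-HSC replicate 1.

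Sema6b was the class 6 member with the smallest differences from pre-HSC. It had 6.63 and 5.03 FPKM in FL-HSC, 3.83, 1.49 and 3.35 FPKM in ex-HSC, and 11.0, 13.1 and 11.9 FPKM in pre-HSC. It fell in ex-HSC against pre-HSC (-1.79 ± 0.26, adjusted p = 0.000241). In FL-HSC it fell against pre-HSC (-0.94 ± 0.29, adjusted p = 0.0252) and was above ex-HSC (0.86 ± 0.29, adjusted p = 0.0449), but the call against ex-HSC was lost in 7 of 8 fits that left out a library, all but that without ex-HSC replicate 1 (adjusted p up to 0.204, and a value of 0.57 without ex-HSC replicate 2), with no filter (0.118) and with median-of-ratios scaling (0.60, adjusted p = 0.0759). The call against pre-HSC was lost without FL-HSC replicate 2 (adjusted p = 0.131) or pre-HSC replicate 1 (0.0507), 2 (0.0673) or 3 (0.0519), and with no filter (0.0718).

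Sema3g and Sema3f, secreted class 3 members, were highest in pre-HSC and at or below 0.399 FPKM elsewhere. Sema3g, known from arterial endothelium, had 0.399 and 0.231 FPKM in FL-HSC, 0.141, 0.202 and 0.358 FPKM in ex-HSC, and 6.93, 8.63 and 8.62 FPKM in pre-HSC. Sema3f, a ligand of neuropilin-2, had 0.286 and 0.222 FPKM in FL-HSC, 0.347, 0.138 and 0.232 FPKM in ex-HSC, and 7.14, 7.17 and 5.89 FPKM in pre-HSC. Both fell in FL-HSC (-2.78 ± 0.21 and -2.62 ± 0.21) and in ex-HSC (-2.88 ± 0.19 and -2.64 ± 0.19), with limma adjusted p at or below 3.73e-06. Sema3d, described after its values were seen, differed from them, with 0.0140 and 0.136 FPKM in FL-HSC, 3.50, 2.71 and 3.07 FPKM in ex-HSC, and 1.86, 1.28 and 1.60 FPKM in pre-HSC. The 3 groups of Sema3d did not overlap, with ex-HSC highest. It was lower in FL-HSC than ex-HSC (-1.93 ± 0.21, adjusted p = 0.000122) and than pre-HSC (-1.26 ± 0.21, adjusted p = 0.000839), and rose in ex-HSC against pre-HSC (0.67 ± 0.19, adjusted p = 0.0161), a call lost without ex-HSC replicate 1 (adjusted p = 0.0516) or pre-HSC replicate 2 (0.0667) and with a pseudocount of 0.1 (0.93, adjusted p = 0.0789).

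Sema4b and Sema4d, transmembrane semaphorins, had their lowest group means in pre-HSC. Sema4b had 12.4 and 11.7 FPKM in FL-HSC, 11.6, 6.90 and 6.99 FPKM in ex-HSC, and 4.13, 2.76 and 6.38 FPKM in pre-HSC. Every FL-HSC and ex-HSC library was above every pre-HSC library. Sema4b rose in FL-HSC (1.32 ± 0.31, adjusted p = 0.00621) and in ex-HSC (0.83 ± 0.28, adjusted p = 0.0338). The ex-HSC call was lost without ex-HSC replicate 1 (0.61, adjusted p = 0.12), pre-HSC replicate 1 (0.81, adjusted p = 0.0919) or pre-HSC replicate 2 (0.59, adjusted p = 0.145) and with no filter (adjusted p = 0.0941). Sema4d, known from lymphocytes and as a ligand of plexin-B1, had 31.5 and 28.6 FPKM in FL-HSC, 51.5, 0 and 48.5 FPKM in ex-HSC, and 9.82, 6.51 and 12.5 FPKM in pre-HSC. It was the most abundant semaphorin in both FL-HSC libraries and in ex-HSC replicates 1 and 3. In ex-HSC replicate 2 it was listed at 0. Among all genes there were 100 isolated zeros, that is, a 0 in 1 library with at least 10 FPKM in the rest of its group. Whether the 0 of Sema4d was a failed estimate was not tested.

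With that 0 as deposited, Sema4d was not called in any comparison (FL-HSC against ex-HSC 1.17 ± 1.32, adjusted p = 0.533; ex-HSC against pre-HSC 0.42 ± 1.18, adjusted p = 0.801; FL-HSC against pre-HSC 1.59 ± 1.32, adjusted p = 0.355). With the isolated zeros treated as missing, its difference from pre-HSC passed the threshold in FL-HSC (1.59, adjusted p = 7e-04) and in ex-HSC (2.31, adjusted p = 3.86e-05), and FL-HSC against ex-HSC became -0.72 (adjusted p = 0.077). Without ex-HSC replicate 2 the same 3 values had adjusted p of 0.00126, 0.000218 and 0.0712. Sema4a, which is known from dendritic cells and T cell priming, had 1.19 and 1.74 FPKM in FL-HSC, 2.85, 4.14 and 2.42 FPKM in ex-HSC, and 2.91, 1.58 and 2.30 FPKM in pre-HSC. It was not called in any comparison (FL-HSC against ex-HSC -0.74 ± 0.27, adjusted p = 0.0558), but was called lower in FL-HSC against ex-HSC with median-of-ratios scaling (-0.97, adjusted p = 0.0355). Sema7a, a lipid-anchored ligand of plexin-C1 described after its values were seen, had 1.41 and 1.69 FPKM in FL-HSC, 4.30, 2.45 and 4.33 FPKM in ex-HSC, and 3.74, 4.87 and 4.00 FPKM in pre-HSC. It was lower in FL-HSC than ex-HSC (-0.85 ± 0.25, adjusted p = 0.0256) and than pre-HSC (-1.02 ± 0.25, adjusted p = 0.00791), calls lost without FL-HSC replicate 1 (adjusted p = 0.115 and 0.0512), and that against ex-HSC also without FL-HSC replicate 2 (0.0673), ex-HSC replicate 1 (0.0642) or ex-HSC replicate 3 (0.0752) and with no filter (0.0799).

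Of the other 5 tested semaphorins, Sema3a, Sema3b and Sema5a fell in FL-HSC and Sema3b, Sema4g and Sema5a fell in ex-HSC against pre-HSC, while Sema5b was not called in any comparison. Their group means were at most 2.89 FPKM. Sema5b reached 2.31 FPKM in ex-HSC replicate 2 and was at most 0.226 FPKM in the other ex-HSC libraries. The untested Sema3c, Sema3e and Sema4f had at most 1.57 FPKM.

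Plexins, the semaphorin receptors, held the most abundant guidance gene of pre-HSC. Plxnd1, the plexin known from endothelium, had 25.1 and 25.7 FPKM in FL-HSC, 12.5, 5.07 and 10.6 FPKM in ex-HSC, and 302, 333 and 278 FPKM in pre-HSC. The groups were apart in the order ex-HSC, FL-HSC, pre-HSC by rising level. It fell by 3.53 ± 0.30 in FL-HSC and by 4.95 ± 0.27 in ex-HSC against pre-HSC (log2, adjusted p = 6.12e-06 and 1.44e-07), and was higher in FL-HSC than ex-HSC (1.43 ± 0.30, adjusted p = 0.00513). Plxnd1 alone made up 33.5% to 35.1% of plexin FPKM in FL-HSC, 22.2% to 33.8% in ex-HSC and 78.4% to 85.8% in pre-HSC. Plxnb2, a widely expressed receptor of class 4 semaphorins, had 16.1 and 8.83 FPKM in FL-HSC, 9.48, 6.93 and 11.2 FPKM in ex-HSC, and 41.1, 24.7 and 47.6 FPKM in pre-HSC. It fell in FL-HSC (-1.53 ± 0.33, adjusted p = 0.00379) and in ex-HSC (-1.90 ± 0.30, adjusted p = 0.000383), which overlapped each other.

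Plxnc1 and Plxna1 had other patterns. Plxnc1, the receptor of Sema7a, had 18.1 and 26.2 FPKM in FL-HSC, 9.55, 6.12 and 9.65 FPKM in ex-HSC, and 8.36, 7.08 and 6.48 FPKM in pre-HSC. It rose in FL-HSC against ex-HSC (1.30 ± 0.26, adjusted p = 0.00398) and against pre-HSC (1.46 ± 0.26, adjusted p = 0.00112), while ex-HSC and pre-HSC overlapped (0.17 ± 0.23, adjusted p = 0.592). Plxna1, a receptor of class 3 semaphorins with neuropilins and of class 6 semaphorins, had 7.86 and 8.13 FPKM in FL-HSC, 2.18, 1.17 and 1.61 FPKM in ex-HSC, and 9.12, 7.62 and 8.15 FPKM in pre-HSC. FL-HSC lay within the pre-HSC range, and ex-HSC lay below both. It was higher in FL-HSC than ex-HSC (1.78 ± 0.23, adjusted p = 0.00032), fell in ex-HSC against pre-HSC (-1.82 ± 0.21, adjusted p = 3.47e-05) and gave -0.04 ± 0.23 in FL-HSC relative to pre-HSC (adjusted p = 0.894). Plxnb1, a receptor of Sema4d, had 0.615 and 0.688 FPKM in FL-HSC, 0.222, 0.319 and 0.230 FPKM in ex-HSC, and 6.41, 5.61 and 4.91 FPKM in pre-HSC. Plxnb1 reached 1 FPKM in pre-HSC libraries only, as did Plxna4, and fell in FL-HSC (-2.00 ± 0.21) and ex-HSC (-2.40 ± 0.18) against pre-HSC with adjusted p of 2.53e-05 and 1.85e-06. Of the other tested plexins, Plxna2 and Plxna4 fell in both comparisons against pre-HSC and Plxna3 fell in ex-HSC and was not called in FL-HSC (adjusted p = 0.494), with group means of at most 4.27 FPKM. Plxnb3 was not tested and stayed at or below 0.615 FPKM.

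Slit2 and Robo4 were the guidance genes with the largest rises in FL-HSC against ex-HSC. Slit2, a secreted ligand of Robo1 and Robo2, had 5.90 and 11.3 FPKM in FL-HSC, 0.410, 0.980 and 0.395 FPKM in ex-HSC, and 6.15, 4.52 and 3.11 FPKM in pre-HSC. It was higher in FL-HSC than ex-HSC (2.55 ± 0.32, adjusted p = 0.000279) and fell in ex-HSC against pre-HSC (-1.79 ± 0.29, adjusted p = 0.00047). FL-HSC and pre-HSC overlapped and gave 0.76 ± 0.32 (adjusted p = 0.0806), or 1.17 (adjusted p = 0.0316) without FL-HSC replicate 1. Slit2 made up 96.5% to 99.4% of Slit FPKM in FL-HSC, 47.4% to 68.9% in ex-HSC and 31.4% to 43.5% in pre-HSC. Slit3, the Slit gene that was most abundant in pre-HSC, had 0.115 and 0.0212 FPKM in FL-HSC, 0.449, 0.210 and 0.102 FPKM in ex-HSC, and 7.72, 5.64 and 6.55 FPKM in pre-HSC. It reached 1 FPKM in pre-HSC libraries only, and fell in FL-HSC (-2.83 ± 0.23) and ex-HSC (-2.61 ± 0.20) with adjusted p of 3.73e-06 and 1.85e-06. Slit1 stayed at or below 0.364 FPKM.

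Robo4, the endothelial member of the Robo family, had 12.9 and 13.5 FPKM in FL-HSC, 1.78, 0.719 and 1.78 FPKM in ex-HSC, and 51.2, 53.5 and 50.7 FPKM in pre-HSC. The 3 groups were apart, with FL-HSC between the others. It was 9.22 times higher in FL-HSC than ex-HSC by the group means (2.58 ± 0.25, adjusted p = 4.59e-05) and fell by 1.90 ± 0.25 in FL-HSC and by 4.48 ± 0.22 in ex-HSC against pre-HSC (log2, adjusted p = 0.00014 and 7.56e-08). Robo4 made up 89.3% to 95.6% of Robo FPKM in FL-HSC, 19.4% to 47.2% in ex-HSC and 79.6% to 84.7% in pre-HSC. Robo1, a receptor of Slit2, had 0.372 and 1.08 FPKM in FL-HSC, 1.90, 1.48 and 1.65 FPKM in ex-HSC, and 9.94, 9.75 and 6.85 FPKM in pre-HSC. Its FL-HSC libraries all lay below its ex-HSC libraries, a difference that was not called (-0.66 ± 0.26, adjusted p = 0.0717; 0.0216 with median-of-ratios scaling, 0.0393 with a pseudocount of 0.1 and 0.045 without FL-HSC replicate 2), and fell in FL-HSC (-2.53 ± 0.26) and ex-HSC (-1.87 ± 0.23) against pre-HSC with adjusted p of 2.34e-05 and 6.84e-05. Robo2 fell in both comparisons against pre-HSC, where it averaged 2.59 ± 0.634 FPKM, and Robo3 was not tested.

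Unc5 genes encode netrin receptors. Unc5b, the member known from endothelium, had 0.205 and 0.0455 FPKM in FL-HSC, 0.998, 1.16 and 1.51 FPKM in ex-HSC, and 10.9, 11.2 and 10.9 FPKM in pre-HSC. The groups did not overlap, and it fell by 3.42 ± 0.21 in FL-HSC and by 2.44 ± 0.19 in ex-HSC against pre-HSC (log2, adjusted p = 6.45e-07 and 1.98e-06) and lay lower in FL-HSC than ex-HSC (-0.98 ± 0.21, adjusted p = 0.00584). Unc5c was listed at 0 in both FL-HSC libraries, had 0.0174 to 0.325 FPKM in ex-HSC and 1.26 to 2.99 FPKM in pre-HSC, the group alone in which it reached 1 FPKM, and fell in both comparisons against pre-HSC. Unc5a was not called in any comparison, with group means of 0.696 to 1.56 FPKM. Unc5d stayed at or below 0.0989 FPKM.

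**Figure D5:**
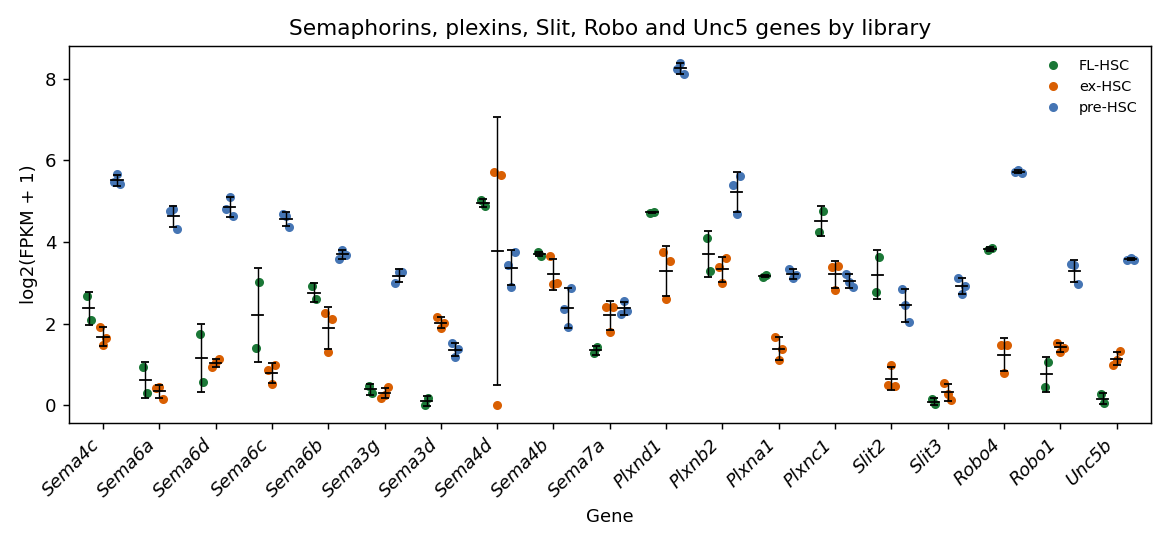
Log2(FPKM + 1) of most semaphorins, plexins and Slit, Robo and Unc5 genes described in the text, by library (points, green FL-HSC, orange ex-HSC, blue pre-HSC), with group mean and SD as black bars. Sema3f, Sema4a and Plxnb1 are among the described genes that are not drawn. Plxna1, Slit2 and Robo4 show ex-HSC below both other groups, as do Plxnd1, Sema4c, Sema6b and Sema6c. Plxnc1 is highest in FL-HSC, and the wide Sema4d bar in ex-HSC comes from the library listed at 0.

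Co-receptors and other guidance genes outside the symbol rule were counted from a list of 22, of which 16 were tested. Against pre-HSC, 12 fell and none rose in FL-HSC, and 12 fell and 2 rose in ex-HSC, and FL-HSC against ex-HSC had 1 higher and 2 lower, beside the shares over all tested genes given above. Of the 16, 8 (Nrp2, Ntn1, Ntn3, Ntn4, Rgma, Rgmb, Flrt2 and Itga1) reached 1 FPKM in pre-HSC libraries only, passed the filter through that group, and made up 7 of the 12 falls in FL-HSC and 8 of the 12 in ex-HSC. Nrp2, a neuropilin that binds class 3 semaphorins and VEGF-C, averaged 0.476 ± 0.398 FPKM in FL-HSC, 0.886 ± 0.167 in ex-HSC and 86.1 ± 6.18 in pre-HSC (SD, n = 2, 3 and 3). Nrp1, the other neuropilin, averaged 0.794 ± 0.743, 1.24 ± 0.136 and 49.6 ± 2.61 FPKM in the same order. Nrp2 changed by -5.91 ± 0.23 in FL-HSC and -5.53 ± 0.21 in ex-HSC, and Nrp1 by -4.88 ± 0.27 and -4.50 ± 0.24 (log2, adjusted p at or below 2.48e-07). Flrt2, a ligand of Unc5 receptors, and Rgmb, a ligand of neogenin, also fell in both. Met, the hepatocyte growth factor receptor, averaged 0.962 ± 0.550 FPKM in FL-HSC, 3.39 ± 1.21 in ex-HSC and 1.11 ± 0.275 in pre-HSC and rose in ex-HSC (1.03 ± 0.25, adjusted p = 0.00673). Tyrobp, an adaptor of myeloid receptors, averaged 48.2 ± 36.7, 312 ± 48.2 and 110 ± 81.4 FPKM in the same order and rose in ex-HSC against pre-HSC (1.79 ± 0.54, adjusted p = 0.0206), a call lost without ex-HSC replicate 1 (adjusted p = 0.0641) or 2 (0.06) or with no filter (0.0952), with a value of 1.18 without pre-HSC replicate 2.

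Of 44 intracellular effectors 42 were tested. Against pre-HSC 21 fell and 3 rose in FL-HSC and 23 fell and 3 rose in ex-HSC, and FL-HSC against ex-HSC had 10 higher and 6 lower. Over all tested genes 20.4% fell and 22.9% rose in FL-HSC and 28.4% fell and 15.7% rose in ex-HSC against pre-HSC. In FL-HSC against ex-HSC 23.8% were higher and 14.3% lower, beside 24.1% and 9.15% over all tested genes, so the share higher was near that of all genes. The 4 effectors Dpysl4, Dpysl5, Farp2 and Srgap1 reached 1 FPKM in pre-HSC libraries only. Grb10, an adaptor that binds Eph and other receptor kinases, averaged 132 ± 14.4 FPKM in FL-HSC, 12.7 ± 4.94 in ex-HSC and 227 ± 25.7 in pre-HSC. It was higher in FL-HSC than ex-HSC (3.34 ± 0.28, adjusted p = 2e-05) and fell in ex-HSC against pre-HSC (-4.12 ± 0.25, adjusted p = 3.29e-07). Srgap3, a Slit-Robo GTPase-activating protein, averaged 6.34 ± 1.00 FPKM in FL-HSC, 1.27 ± 0.244 in ex-HSC and 1.42 ± 0.144 in pre-HSC, and rose in FL-HSC against ex-HSC (1.69 ± 0.22, adjusted p = 0.000297) and against pre-HSC (1.60 ± 0.22, adjusted p = 0.000184). Its relative Srgap1 averaged 0.651 ± 0.0702, 0.432 ± 0.127 and 9.68 ± 1.51 FPKM in the same order and fell in FL-HSC (-2.69 ± 0.22, adjusted p = 4.49e-06). Crmp1 and Dpysl3, which encode collapsin response mediators downstream of Sema3a, averaged 44.7 ± 1.34 and 34.8 ± 7.76 FPKM in pre-HSC, were at or below 1.86 FPKM in every other library and fell in both comparisons.

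Furin, the protease that processes class 3 semaphorins among many substrates, had 14.8 and 14.5 FPKM in FL-HSC, 245, 94.6 and 130 FPKM in ex-HSC, and 24.0, 25.5 and 26.1 FPKM in pre-HSC. Its ex-HSC libraries were above all others, with a log2 difference of -3.22 ± 0.32 in FL-HSC against ex-HSC (adjusted p = 6.34e-05) and 2.47 ± 0.29 in ex-HSC against pre-HSC (adjusted p = 4.58e-05). Mical1, an enzyme that takes part in semaphorin signalling to actin, averaged 6.83 ± 0.994 FPKM in FL-HSC, 22.0 ± 4.32 in ex-HSC and 11.5 ± 1.18 in pre-HSC and was likewise lower in FL-HSC than ex-HSC (-1.54 ± 0.23, adjusted p = 0.000707). Enah, an actin regulator whose Drosophila counterpart acts with Robo, averaged 1.33 ± 0.112 FPKM in FL-HSC, 20.3 ± 6.73 in ex-HSC and 13.5 ± 2.24 in pre-HSC, and lay lower in FL-HSC than ex-HSC (-3.14 ± 0.28, adjusted p = 3.23e-05).

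The endothelial marker list moved with the guidance genes against pre-HSC. Of 18 endothelial markers, 17 fell in FL-HSC with a list median of -4.50, and all 18 fell in ex-HSC with a median of -4.85, and all 12 stromal markers in FL-HSC and 11 of 12 in ex-HSC fell. The stromal marker Col1a1 averaged 0.799 ± 0.769 FPKM in FL-HSC, 2.90 ± 1.46 in ex-HSC and 97.1 ± 47.5 in pre-HSC. Among the 5 tested neuron and neural crest markers, 4 fell in FL-HSC and 5 fell in ex-HSC. These counts stand beside 20.4% of all tested genes called lower in FL-HSC and 28.4% in ex-HSC. The part of these cell types in the fall of Ephb4, Plxnd1, Robo4, Efnb2, Nrp1 and the other guidance genes was not tested. Of 12 blood stem and progenitor markers, 10 rose and 1 fell in FL-HSC, and 6 rose and 1 fell in ex-HSC, against pre-HSC. Over all tested genes 22.9% were called higher in FL-HSC and 15.7% in ex-HSC. Between FL-HSC and ex-HSC, 8 of 18 endothelial markers were higher and 2 lower in FL-HSC, and 8 of 9 mast cell markers were lower. Of the 12 blood stem and progenitor markers, 6 were higher and 1 lower in FL-HSC. In that comparison 24.1% of all tested genes were called higher and 9.15% lower. The part of these markers in the differences of Robo4, Slit2, Sema3d and the others was not tested either.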

How the data were processed

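RNA-seq values of 8 libraries (2 FL-HSC, 3 ex-HSC, 3 pre-HSC) were read from the 1 table the authors deposited, in FPKM per gene and library per the file headers. The mouse build was mm9 and the tools named are DESeq, edgeR, featureCounts and Cufflinks, per the submitters' processing notes, which give neither versions nor roles. Of 33531 rows, 27 bear dates in place of symbols and were left out, and 7392 genes were at 0 in every library. At most 2.48% of low values sat at the most frequent ratio between libraries, so whole reads could not be recovered, and with depth unknown a count model was not used. Values were analysed as log2(FPKM + 1), with genes of at least 1 FPKM in at least 2 of 8 libraries tested (13720). Group means of all 8 libraries were fitted together in limma 3.58.1 (R 4.3.3) with an intensity trend, and p-values of each of the 3 comparisons were Benjamini-Hochberg adjusted across the tested genes. The test was checked on simulated data with normally distributed noise. These lacked isolated zeros and scale differences between groups, so the check does not cover those features of the libraries. Group values are mean ± SD.

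The members and all lists were chosen with earlier results of these data known. Values per library are given for members with a group mean of at least 5 FPKM or a called absolute log2 fold change of at least 2, and for Efnb2, Ephb4, Robo4, Sema4a, Sema4d, Plxnd1 and Plxnc1 (29 members), and for 4 more named as chosen after their values were seen. From the lists of 22 other guidance genes and 44 effectors, up to 4 called genes per direction and comparison were eligible. Alternatives were a pseudocount of 0.1, no filter, median-of-ratios scaling, a replicate block, isolated zeros as missing values, and each library left out in turn. Close paralogs may share reads, and how such reads were assigned is not given in the sources used here. Promoter windows come from RefSeq (GRCm38.p6) and figures were drawn with matplotlib 3.10.9.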

Additional observations from a re-analysis of the deposited data

How the results depend on the processing

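Of the described members called lower against pre-HSC, 22 of 25 in FL-HSC and 24 of 24 in ex-HSC kept their call in every alternative. Of those called higher, 2 of 3 and 0 of 2 did. The described falls were part of 36 in each comparison and were picked in part for large called changes. Some of them reached 1 FPKM in pre-HSC libraries only. In FL-HSC against ex-HSC, where every called member was described whatever its size, 6 of 11 higher and 2 of 7 lower kept their call. The shares of the 3 comparisons therefore cannot be ranked. With no filter on low values 7 members were higher and 3 lower in FL-HSC against ex-HSC and 1 was higher in ex-HSC against pre-HSC, and the medians against pre-HSC were -1.17 for FL-HSC and -1.35 for ex-HSC. A pseudocount of 0.1 gave medians of 0.34 in FL-HSC against ex-HSC and, against pre-HSC, of -3.34 for FL-HSC and -2.85 for ex-HSC, left 1 member higher in ex-HSC, turned Sema4d to -0.57 in ex-HSC against pre-HSC, and made 19 of 72 called changes over 1.5 times larger. Median-of-ratios scaling gave 4 members higher in ex-HSC against pre-HSC, and turned Efna2 (-0.0409), Sema3f (-0.0374) and Sema6d (-0.0611) in FL-HSC against ex-HSC. Isolated zeros as missing turned Sema4d to -0.72 in FL-HSC against ex-HSC. With no filter 26112 genes were tested in place of 13720. The cause of these shifts was not tested.

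Leaving out 1 library at a time gave, in FL-HSC against ex-HSC, 7 to 12 members higher, 3 to 8 lower and medians of -0.0017 to 0.26. In ex-HSC against pre-HSC it gave 0 to 5 higher, 36 to 37 lower and medians of -1.80 to -1.64, and in FL-HSC against pre-HSC 3 to 4 higher, 32 to 37 lower and medians of -1.54 to -1.36. With 1 FL-HSC library left, that sample is assumed to vary like the other groups. Uncalled genes that changed sign in these fits were, in FL-HSC against ex-HSC, Efna2 (-0.0131 to 0.12), Efnb3 (-0.0017 to 0.21), Sema3f (-0.0395 to 0.0826), Sema4d (-0.72 to 2.14), Sema6a (-0.0262 to 0.60), Sema6d (-0.47 to 0.70) and Plxnb2 (-0.0306 to 0.77), in ex-HSC against pre-HSC Sema4d (-0.55 to 2.31), Efna3 (-0.42 to 0.32) and Sema7a (-0.28 to 0.0374), and in FL-HSC against pre-HSC Plxna1 (-0.0971 to 0.0187). The 16 less abundant tested members were not followed one by one through the alternatives.

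Replicate numbers occur in every group. Deviations of same-numbered libraries from their group means correlated at -0.114 to 0.144, beside -0.229 to 0.229 for differently numbered libraries. With only 2 FL-HSC libraries their deviations mirror each other, so this check cannot decide on pairing. The numbers were not taken as pairs. With a replicate block 9 members were higher and 6 lower in FL-HSC against ex-HSC, 3 and 37 in both comparisons against pre-HSC, and Sema3f turned to -0.0211 in FL-HSC against ex-HSC. In that comparison the block lost the calls of Epha2 (adjusted p = 0.056), Sema7a (0.0656), Sema6b (0.0502), Sema4c (0.0925) and Efna4 (0.0839) and called Efna1 (0.0493), and Ephb2 was called in ex-HSC against pre-HSC (0.0431). Across all alternatives, 1609 of 1742 values of described genes kept direction and side of the threshold, 96 lost and 17 gained the call, and 20 changed sign. Depth is unknown, so members near 0 were not resolved.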

Other observations

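Other blood and liver marker lists differed between the libraries in which the guidance genes were measured. The 9 neutrophil markers summed to 506 to 614 FPKM in FL-HSC, 684 to 998 in ex-HSC and 30.2 to 46.1 in pre-HSC. All 9 rose in both comparisons against pre-HSC, where 22.9% of all tested genes were called higher in FL-HSC and 15.7% in ex-HSC. The 10 erythroid and megakaryocyte markers summed to 190 to 336 FPKM in FL-HSC, 113 to 152 in ex-HSC and 582 to 741 in pre-HSC. The 7 macrophage markers summed to 43.5 to 316 FPKM in FL-HSC, 130 to 195 in ex-HSC and 207 to 1284 in pre-HSC. The 8 hepatocyte markers summed to 17.4 to 67.8 FPKM in FL-HSC, 19.5 to 27.4 in ex-HSC and 31.4 to 99.3 in pre-HSC, and the 12 lymphoid markers to 18.4 to 23.2, 14.7 to 20.6 and 8.70 to 14.3 FPKM in the same order. The part of these lists in the guidance results was not tested.

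Of the 62 guidance genes, 23 reached 1 FPKM in at least 1 library of every group and 9 were listed at 0 in both FL-HSC libraries: Sema3a, Sema3b, Sema5b, Epha5, Epha6, Epha10, Ephb1, Unc5c and Unc5d. Of the untested members, Sema3e had its highest level in ex-HSC, with 0.0487 and 0 FPKM in FL-HSC, 1.25, 0.543 and 0.601 FPKM in ex-HSC, and 0.259, 0.187 and 0.328 FPKM in pre-HSC. Sema4f had its highest level in FL-HSC, with 0.584 and 0.974 FPKM there, 0.636, 0.336 and 0.259 FPKM in ex-HSC, and 0.313, 0.208 and 0.154 FPKM in pre-HSC. Both were chosen after their values were seen.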
